A study of Mus musculus with 10 samples.

Results

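Vagal sensory neurons that carry the capsaicin receptor reach the mouse viscera from a pair of embryonic sources. They are compared here in 4 pools of single, hand-picked neurons: 2 jugular and 2 nodose pools of 30 Trpv1-tdTomato-positive neurons each, out of 10 pools in the series. The members are all genes of these 4 pools, chosen by the pools' labels and not by any measured value. All 4 pools came from Trpv1-tdTomato mice with no stated treatment, in which a Cre recombinase at the Trpv1 gene switches on a ubiquitously promoted tdTomato at the Rosa26 locus. Such a reporter stays on once Cre has acted, so a red cell is one in which Trpv1 was active at some time and need not express it when collected. The neurons came from 2 mice in total. Which mouse gave which pool, and the age and sex of the mice, are not given in the sources used here. "Jugular" means the most rostral and "nodose" the most caudal piece of the fused ganglion, so a neuron's name rests on its position. Beside these pools, 2 nodose pools of 15 Trpv1-tdTomato-negative neurons from the same selection are used for their levels. A separate capsaicin selection, of wild-type C57BL/6 mice, gives 2 nodose pools of 14 and 15 neurons and 2 jugular pools of 15 and 16 neurons. Those neurons had responded to capsaicin, and a response to the P2X agonist α,β-methylene-ATP was required for a nodose cell and its absence for a jugular cell.

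Nodose neurons derive from the epibranchial placodes, whereas jugular neurons derive from the neural crest, like those of the dorsal root ganglia. Both send unmyelinated C-fibers to the airways, esophagus and other viscera. Peptides such as substance P and CGRP, which are released from their endings, are a classic property of crest-derived nociceptors, and ligand-gated channels for ATP and serotonin are known for their role in visceral chemosensation by placodal neurons. The comparison asks how far the transcriptomes of the 2 kinds of Trpv1-lineage neurons differ.

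Values are given as CPM, counts per 1000000 counts after scaling by DESeq2 size factors within the 4 pools, and log2 fold changes are jugular over nodose, so that a negative value is a higher level in nodose neurons. The total was 153686267 to 167704327 counts per pool, and 12153 to 12615 genes had at least 1 count in a pool. A floor of 3 counts, below which a level is not separated from 0, lay at 0.0179 to 0.0195 CPM. A pool holds only 30 cells, and the spread between pools was much larger than the counting error. Between replicates the counts differed by a chi-square of 2585 (nodose) and 2286 (jugular) per degree of freedom, so no pool was a copy of another. Across the 6186 genes that reached 10 CPM in both pools of at least 1 ganglion, log2(CPM + 1) correlated with r = 0.669 between the nodose pools and 0.748 between the jugular pools. Between pools of different ganglia r was 0.434 to 0.459. These are correlations across genes, which are not independent replicates. In a principal component analysis over 15028 genes, the first component held 41.2% of the variance. It placed the nodose pools at -108.5 and -100.6 and the jugular pools at 106 and 103.1. The second, with 33.1%, lay between the 2 nodose pools, at 130 and -135.

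The spread depended strongly on level. Among the 5849 genes with a mean of 10 to 100 CPM, the median size of the log2 difference was 1.62 between the nodose replicates and 1.2 between the jugular replicates, against 1.28 between the ganglion means. Among the 91 genes of at least 1000 CPM these values were 0.227, 0.16 and 0.336. The ganglion means average 2 pools each, which by itself makes their difference smaller than that of single pools, so the plot of spread by level is a description.

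**Figure D1:**
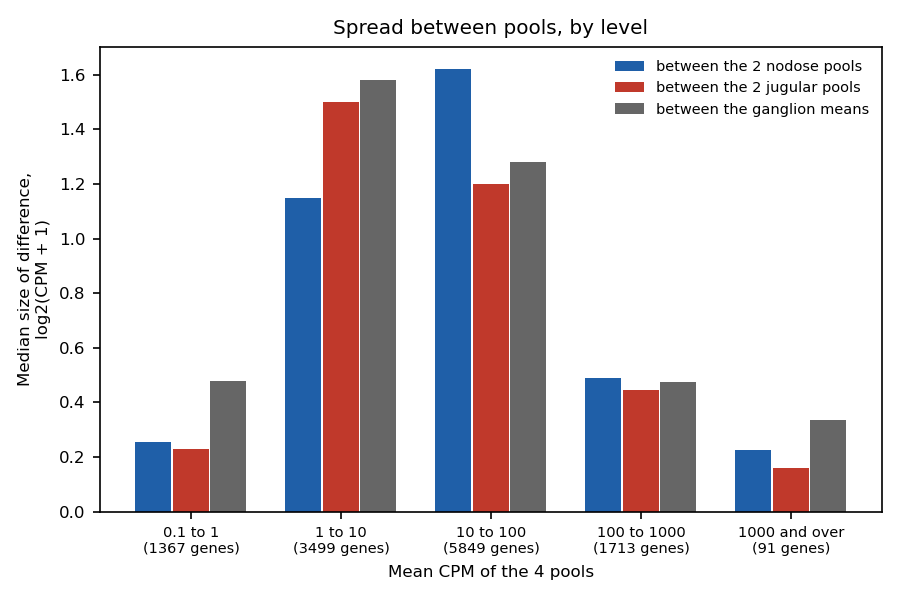
Median size of the difference in log2(CPM + 1) between the 2 nodose pools (blue), between the 2 jugular pools (red) and between the ganglion means (grey), by the mean CPM of the 4 pools. For genes of 10 to 100 CPM the nodose replicates differed by 1.62 and the ganglia by 1.28, and for genes of 1000 CPM and over by 0.227 and 0.336.

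By edgeR's quasi-likelihood test, 15 genes had higher levels in jugular neurons and 20 in nodose neurons, taking a Benjamini-Hochberg adjusted p up to 0.1 together with a 2-fold difference or more and 10 CPM or more in each pool of one ganglion. These are 0.136% and 0.182% of the 10990 genes tested, or 0.318% in either direction, and they are referred to as called. With the newer quasi-dispersion estimate of edgeR, 14 jugular (0.127%) and 12 nodose genes (0.109%) were called, 26 in all (0.237%), of which 13 were among the 35. Unadjusted p-values under 0.05 were found for 1305 genes, or 11.9%. DESeq2, the tool of the study, called 306 jugular genes (2.29% of 13337 genes with an adjusted p) and 204 nodose genes (1.53%), and these include 26 of the 35 genes called by edgeR. The 9 that DESeq2 did not call were Calca, Calcb, Fez1, S100a6, Tmem176b, Lgals1, Gnas, Fstl1 and Rn45s, with DESeq2 adjusted p from 0.110 for Calca to 0.740 for Fstl1. Both jugular pools lay above both nodose pools in 1502 of the 6186 genes past the CPM minimum (24.3%), and both nodose pools lay above both jugular pools in 1530 (24.7%). Scaling centres the fold changes near 0, so these shares serve only as the background for the gene lists. In 23 of the 35 called genes both pools of the lower ganglion were under 1 CPM, 10 of them jugular genes and 13 nodose genes. In 11 others the lower ganglion was still at 10 CPM or more in both pools, and Hopx lay between. The calls rested on all 4 pools and did not hold with any 1 left out, where a ganglion keeps a lone pool. All 35 genes kept their direction in those fits, which was fixed in advance because their pools do not overlap. In each gene the lowest pool of the higher ganglion was at least 2.59-fold above the highest pool of the lower one. Limma-voom called none, with 1421 genes at an unadjusted p under 0.05. Its adjusted p was 0.1001 for many of the 35, such as Gna14 and Gnas, and 0.205 for Hopx. With 2 pools a group, an exact permutation test cannot go below p = 0.333, so p-values here borrow their estimate of variation from all genes together and measure only how these pools vary, which may share a mouse.

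**Figure D2:**
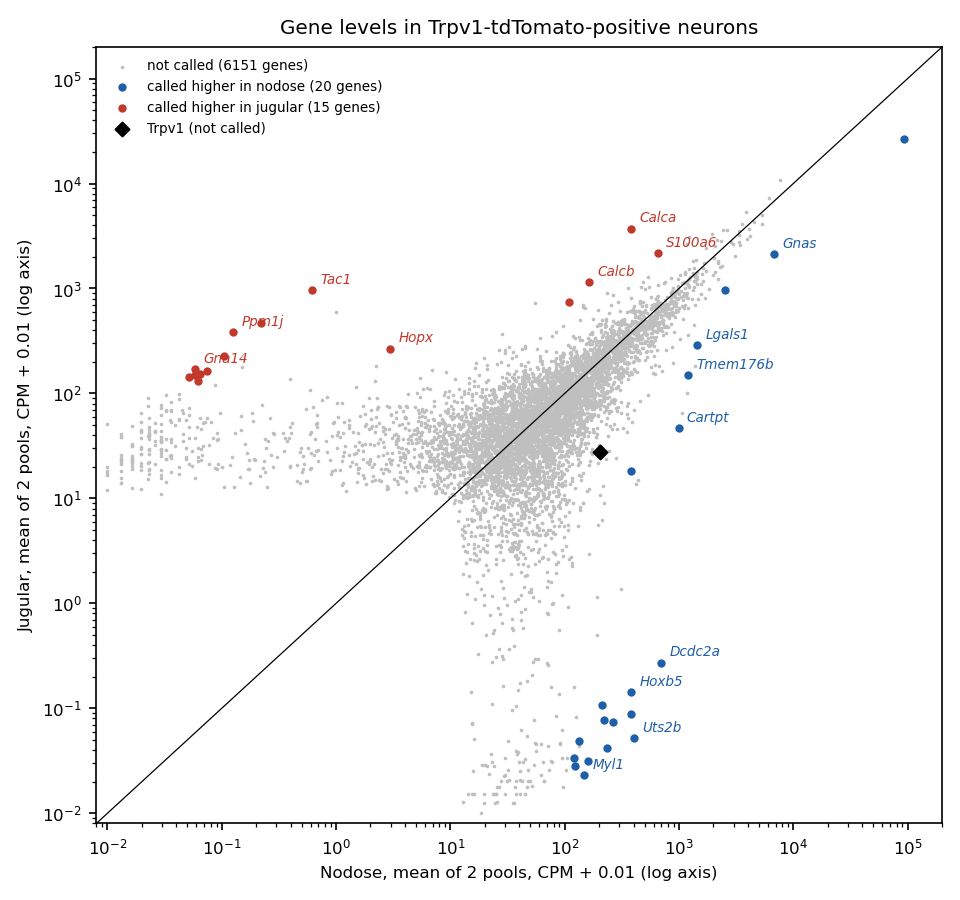
Mean CPM of the 2 nodose pools (horizontal) against that of the 2 jugular pools (vertical), both plus 0.01 on log axes, for the 6186 genes with at least 10 CPM in both pools of a ganglion. The 15 genes called higher in jugular (red) and 20 called higher in nodose (blue) lie off the diagonal, 23 of them in the bands where the lower ganglion is under 1 CPM, and Trpv1 (diamond) lies below the diagonal without a call.

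Trpv1, the capsaicin-gated cation channel, was at 256 and 153 CPM in the nodose and at 22.3 and 32.5 CPM in the jugular pools. Both jugular pools were below both nodose pools, but the difference was not called (log2 fold change -2.86, SE 0.641, edgeR adjusted p = 0.321). In the Trpv1-tdTomato-negative nodose pools it was at 0.0399 and 0.036 CPM, so both kinds of red pool held Trpv1 transcripts far above the pools without the reporter. In the capsaicin selection the pools overlapped, with a log2 fold change of -0.32. In pooled cells a lower level in each cell and fewer cells that express the gene cannot be told apart, here and in all that follows. General markers of sensory neurons were present in every pool. Prph, encoding peripherin, was at 4502 and 4599 CPM in the nodose pools and at 4537 and 4001 in the jugular pools. Of the 15 neuron markers, 3 were higher in both jugular pools and 5 in both nodose pools (20% and 33.3%), near the 24.3% and 24.7% of all genes, with a median log2 fold change of -0.234.

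Markers of other cells that a pipette can carry along were checked as lists. The 20 markers of satellite glia and Schwann cells summed to 4480 and 4670 CPM in the nodose pools and to 3770 and 5150 CPM in jugular, with 4 of the 20 without a count in any of the 4 pools. Most of that sum was Apoe, at 3101 and 3540 CPM in nodose against 2552 and 3874 CPM in jugular pools. The 10 fibroblast markers summed to 9.9 and 27.9 CPM and to 38.5 and 5.96 CPM, and the 13 endothelial and mural markers to 64.2 and 82.9 CPM and to 54.1 and 76.1 CPM. Of 17 macrophage and lymphocyte markers 14 had no count in the 4 pools, the list summing to 18.5 and 15.3 CPM in nodose against 7.69 and 4.92 CPM in jugular pools, and all 9 erythrocyte markers were without a count. The glial, fibroblast and endothelial sums overlapped between the ganglia. The 16 skeletal muscle markers summed to 13.9 and 38.4 CPM in nodose and to 4.5 and 8.61 CPM in jugular pools, and 8 of the 16 had no count. The ribosomal precursor Rn45s took 10.34% and 8.537% of all nodose counts but 3.384% and 2.652% of all jugular counts.

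Neuropeptide genes held the largest group of calls. Of 57 precursor genes on the list 14 were tested and 10 passed the CPM minimum. Among these, 3 calls were jugular and 3 were nodose, where 0.136% and 0.182% of all genes tested were. The pools of 4 of the 10 lay higher in jugular and of 5 higher in nodose (40% and 50%, against 24.3% and 24.7% of all genes), and the median log2 fold change was -0.6. Peptide genes thus split between the ganglia.

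Calca, which encodes α-CGRP and calcitonin, was at 3651 and 3802 CPM in the jugular and at 293 and 474 CPM in the nodose pools (log2 fold change 3.32, SE 0.263, edgeR adjusted p = 0.0361). Calcb, which encodes β-CGRP, was at 1153 and 1129 CPM in the jugular pools and at 163 and 161 CPM in the nodose pools (log2 fold change 2.86, SE 0.21, adjusted p = 0.0312). DESeq2 called neither (adjusted p = 0.110 for Calca and 0.194 for Calcb), and the edgeR fit to 6 pools lost Calcb (adjusted p = 0.387). The 2 genes lie close together on chromosome 7 and are similar in sequence, so reads may have been split between them, and the share of each is uncertain. Tac1, encoding substance P and neurokinin A, was at 1075 and 843 CPM in jugular pools and under 1 CPM in both nodose pools, at 0.971 and 0.248 CPM (log2 fold change 10.65, SE 0.945, adjusted p = 0.0453). CGRP transcripts were therefore lower in nodose neurons but far above 1 CPM, whereas those of Tac1 were under 1 CPM there, though above the floor. Nmb, the gene of neuromedin B, also lay higher in both jugular pools, at 534 and 476 CPM against 207 and 64.2 CPM, and was not called (adjusted p = 0.327).

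On the nodose side, Cartpt, the precursor of CART peptides, was at 1149 and 834 CPM against 56.5 and 36.7 CPM in both jugular pools (log2 fold change -4.37, SE 0.376, edgeR adjusted p = 0.044). Uts2b, which encodes the urotensin II-related peptide, was at 320 and 491 CPM in nodose against 0.0485 and 0.0356 CPM in jugular pools, the latter 9 and 7 counts. The ratio of its summed counts per total was 8507, with an exact binomial 95% interval of 5238 to 14880 that covers counting error only, and its adjusted p was 0.0187. Vip, encoding vasoactive intestinal peptide, was at 113 and 131 CPM in nodose pools and had 2 and 5 counts in the jugular pools, a ratio of 5852 with an interval of 2840 to 14560 (adjusted p = 0.0946). The nodose peptides Uts2b and Vip were thus at or near the floor in jugular neurons, while Cartpt was only lower. Adcyap1, the gene of PACAP, and Agrp, of agouti-related peptide, also had both nodose pools above both jugular pools without a call. Adcyap1 was at 298 and 160 CPM against 26.5 and 120, and Agrp at 13.2 and 81.4 CPM against 2 counts in each jugular pool.

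The upstream sequences of 3 of these 6 peptide genes are shown because their start is the same base in RefSeq and in GENCODE vM21, so that no transcribed base is included. They are RefSeq sequences of build GRCm38.p6, 250 bases before the start, 5′ to 3′ on the gene's strand. Capitals mark matches, on either strand, to 4 short motifs: TAATTA, bound by many homeodomain proteins, CANNTG, the E-box, TGACGTCA, the cyclic AMP response element, and TATAAA, the TATA box. The E-box match of Calca starts 113 bases before the start of transcription, and the matches of Vip to TATAAA begin 157 and 147 bases before it, with another match nearer to the start. Calca, on chr7:114636358-114636607, minus strand, and Uts2b, on chr16:27370240-27370489, minus strand, hold an E-box each. Vip, on chr10:5638968-5639217, plus strand, holds none.
Calca: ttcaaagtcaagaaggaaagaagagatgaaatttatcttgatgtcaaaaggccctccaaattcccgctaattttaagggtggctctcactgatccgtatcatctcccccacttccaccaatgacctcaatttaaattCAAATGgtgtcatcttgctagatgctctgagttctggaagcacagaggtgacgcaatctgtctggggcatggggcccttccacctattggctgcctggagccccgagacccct
Uts2b: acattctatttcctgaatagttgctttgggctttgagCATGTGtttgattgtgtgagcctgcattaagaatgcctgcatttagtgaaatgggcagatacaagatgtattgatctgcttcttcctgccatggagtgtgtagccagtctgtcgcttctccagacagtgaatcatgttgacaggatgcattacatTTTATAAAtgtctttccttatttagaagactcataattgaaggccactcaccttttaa
Vip: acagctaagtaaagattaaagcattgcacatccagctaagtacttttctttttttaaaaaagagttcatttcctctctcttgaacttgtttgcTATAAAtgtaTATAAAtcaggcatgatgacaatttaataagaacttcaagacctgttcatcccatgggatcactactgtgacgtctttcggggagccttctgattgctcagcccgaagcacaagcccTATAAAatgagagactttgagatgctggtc
Among all called genes, 9 of 15 jugular genes and 12 of 20 nodose genes had an upstream sequence in the table. TATAAA was found in 1 of the 9 (11.1%) and in 5 of the 12 (41.7%), against 14.3% of 27025 genes. CANNTG was found in 9 of 9 and 10 of 12 (83.3%), against 69.3%, TAATTA in 1 of 9 and 0 of 12, against 5.65%, and TGACGTCA in 0 of 9 and 1 of 12 (8.33%), against 1.77%. With so few genes these shares are a description only, and a match of letters is not a binding site.

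Proteins that process peptides and form dense-core granules lay more often on the nodose side without any call. Of 13 genes past the CPM minimum, 6 were higher in both nodose pools and 2 in both jugular pools (46.2% and 15.4%, against 24.7% and 24.3% of all genes), and the median log2 fold change was -0.55. Scg2, secretogranin II, was at 988 and 1765 CPM in nodose against 123 and 243 CPM in both jugular pools (log2 fold change -2.87, SE 0.465, edgeR adjusted p = 0.208). Pcsk1, a prohormone convertase, was at 96.9 and 115 CPM in nodose pools, and the jugular pools disagreed, at 0.0215 and 9.88 CPM.

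Among regulators of sensory cell identity, Etv1, an ETS-domain factor, was called on the nodose side, at 240 and 185 CPM against 0.108 and 0.0864 CPM in jugular (log2 fold change -11.05, SE 0.89, edgeR adjusted p = 0.0362). Both jugular pools were under 1 CPM. Prdm12, required for nociceptors of crest origin, showed the opposite pattern, at 172 and 186 CPM in jugular against 0.241 and 0.0382 CPM in nodose pools. It missed the threshold (log2 fold change 10.35, SE 1.44, adjusted p = 0.15). Both jugular pools thus held this crest marker, and their labels name them only as jugular. Isl1, a factor of sensory neurons in general, was present in all pools, at 156 and 207 CPM in nodose against 32.9 and 52.7 CPM in jugular.

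Hox genes record position along the body axis. Of 39 genes on the list, 10 were tested, with a median log2 fold change of -0.396, and 5 passed the CPM minimum. Of these 5, 4 were higher in both nodose pools and 1 in both jugular pools (80% and 20%, against 24.7% and 24.3% of all genes), and Hoxb5 was called. It was at 411 and 355 CPM in nodose pools but 0.124 and 0.142 CPM in both jugular pools (log2 fold change -11.44, SE 0.622, edgeR adjusted p = 0.0187). Its neighbours Hoxb6, at 83.9 and 96.3 CPM, and Hoxb4, at 26.5 and 19.4 CPM, had no more than 0.0407 CPM in a jugular pool and were not called (adjusted p = 0.157 and 0.321). Hoxd1 was the exception, with 22.1 and 26.9 CPM in jugular pools but 1 and 0 counts in nodose pools. An antisense RNA overlaps exons of Hoxb5 in the annotation, and the counting is not stated to use strand, so its reads cannot be told from those of the gene.

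Other transcriptional regulators were compared as families, and none was called. These families hold Cited1, Tshz1, Tbx3 and Prdm12, which the study had reported to differ between these pools, so their shares are a description. Of 10 T-box, Prdm, Cited, Tox and Tshz genes past the CPM minimum, 6 were higher in both jugular and 4 in both nodose pools, and in none did the pools overlap (60%, 40% and 0%, against 24.3%, 24.7% and 51% of all genes). Tbx3, a T-box repressor, was at 225 and 159 CPM in nodose pools against 0.0377 and 2.24 CPM. Cited1, a transcriptional co-activator, was at 47.3 and 68.4 CPM in jugular pools and had 2 counts in each nodose pool. Its ratio of 5159 had a counting interval of 2015 to 18940, and its adjusted p was 0.238. Tshz1, a zinc-finger homeobox gene, was at 38.3 and 34.3 CPM in jugular pools and had 6 counts over both nodose pools. Tox2 was the reverse, at 16.1 and 16.1 CPM in nodose pools and 2 counts over both jugular pools.

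The 3 P2X genes past the CPM minimum differed in pattern. P2rx2, the subunit that gives ATP-gated channels their sustained current, was called, at 451 and 317 CPM in nodose pools but 17 and 13 counts in jugular pools. Its ratio was 4276, with a counting interval of 2995 to 6337 (edgeR adjusted p = 0.0187). Its partner P2rx3 was at 98.6 and 265 CPM in nodose against 174 and 226 CPM in jugular pools, and these overlapped. P2rx6 was found in jugular pools, at 49.3 and 20.7 CPM, and had 9 and 2 counts in nodose pools.

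Of the 6 nicotinic and 5-HT3 receptor genes past the CPM minimum, 5 were higher in both nodose pools and none in both jugular pools (83.3% and 0%, against 24.7% and 24.3% of all genes), and Chrna3 was called. Chrna3, an α subunit of ganglionic nicotinic receptors, was at 237 and 289 CPM in nodose against 0.0431 and 0.0864 CPM in both jugular pools (log2 fold change -11.93, SE 0.889, edgeR adjusted p = 0.0312). Chrnb4, whose product assembles with it, was at 61.5 and 169 CPM against 2.1 and 2.69 CPM (adjusted p = 0.321). The serotonin-gated channel genes went the same way. Htr3a was at 895 and 1220 CPM against 100 and 30.3 CPM, and Htr3b at 181 and 444 CPM against 0.377 and 2.36 CPM, neither called (adjusted p = 0.21 and 0.215). In the 5 genes no nodose pool overlapped a jugular pool, and the list's median log2 fold change stayed between -5.22 and -4.19 in every alternative fit.

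The kainate receptor subunit Grik1 was the called glutamate receptor gene, and a jugular one, at 92.2 and 171 CPM against 6 and 10 counts in nodose pools (log2 fold change 11.34, SE 1.32, edgeR adjusted p = 0.0946). Gria4, an AMPA receptor subunit, lay on the other side, at 82.9 and 119 CPM in nodose against 0.0162 and 13.4 CPM in jugular pools, without a call.

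No gene of the TRP, Piezo and acid-sensing, sodium or calcium channel lists was called, and several were found in 1 ganglion only above 1 CPM. Piezo2, the mechanically gated channel of touch, was at 55.1 and 100 CPM in jugular pools and had 6 counts over both nodose pools (log2 fold change 11.97, SE 1.87, edgeR adjusted p = 0.191). Asic3, an acid-sensing channel, was at 82.4 and 47.9 CPM in jugular pools and had 3 counts over both nodose pools, a ratio of 7644 with a counting interval of 2615 to 37070. Trpc4, a receptor-operated cation channel, was on the other side, at 15.6 and 34.9 CPM in nodose pools and had 1 count in each jugular pool. Scn10a and Scn9a, the nociceptor sodium channels NaV1.8 and NaV1.7, overlapped between ganglia. Scn10a was at 233 and 277 CPM in nodose against 172 and 417 CPM in jugular pools.

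Among potassium channels Kcnk3, the acid-sensitive leak channel TASK-1, was called, at 135 and 130 CPM in nodose pools but 6 and 9 counts in jugular pools (log2 fold change -11.67, SE 1.26, edgeR adjusted p = 0.0755). An antisense gene overlaps its exons. Of the 25 potassium channel genes past the CPM minimum, 10 were higher in both jugular and 6 in both nodose pools (40% and 24%, all genes 24.3% and 24.7%). Kcna1, a dendrotoxin-sensitive delayed rectifier, was at 145 and 52.9 CPM in jugular and had 10 counts over both nodose pools (adjusted p = 0.157). Kcnf1, a silent subunit, was at 131 and 14.3 CPM in nodose pools and had 6 counts over both jugular pools.

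Receptors for growth factors, lipids, proteases and peptides gave no call either, but some were found in 1 ganglion. Kit, the stem cell factor receptor, was at 17 and 60.1 CPM in jugular pools and had 6 counts over both nodose pools. Cckar, the cholecystokinin receptor of gut afferents, was at 46 and 161 CPM in nodose pools and had 6 counts over both jugular pools (adjusted p = 0.158). Crhr2, a receptor of the urocortins, was at 79.9 and 31.8 CPM in nodose pools and had 11 counts over both jugular pools. Of the 8 receptors for prostanoids, lysolipids and proteases past the CPM minimum, 5 were higher in both nodose and 2 in both jugular pools (62.5% and 25%, all genes 24.7% and 24.3%). Ptgdr, a prostaglandin D2 receptor, was at 66.6 and 49.6 CPM in jugular pools, and S1pr3, a sphingosine-1-phosphate receptor, at 281 and 421 CPM in nodose against 71.7 and 15 CPM in jugular pools. Mrgprd, the β-alanine receptor of non-peptidergic nociceptors, was at 72.7 and 119 CPM in jugular pools and had 7 counts over both nodose pools (log2 fold change 12.04, SE 1.9, adjusted p = 0.196). Mrgpra6 was the reverse, at 323 and 324 CPM in nodose against 56.8 and 37.5 CPM in jugular pools, and its close relatives make the share of reads it received uncertain.

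G protein α subunits included a call on each side. Gna14, of the Gq class, was at 150 and 191 CPM in jugular pools and had 9 and 6 counts in nodose pools, a ratio of 4045 with a counting interval of 2452 to 7227 (edgeR adjusted p = 0.0453). Gnas, encoding the stimulatory subunit Gsα, was at 6908 and 6579 CPM in nodose against 2216 and 2052 CPM in both jugular pools (log2 fold change -1.62, SE 0.098, adjusted p = 0.0196). The first is a gene found in 1 ganglion, and the second a smaller, tightly replicated difference of an abundant transcript. Gnas is a compound locus with overlapping antisense transcripts, so its count may hold more than Gsα. The 10 RGS genes past the CPM minimum, which encode proteins that end G protein signals, had 5 higher in both jugular and 3 in both nodose pools (50% and 30%, all genes 24.3% and 24.7%). Rgs10 was at 743 and 725 CPM in jugular against 74.6 and 35.3 CPM in nodose pools (log2 fold change 3.78, SE 0.467, adjusted p = 0.115), just short of a call. Rgs2 was at 86.3 and 109 CPM in nodose pools and had 3 counts over both jugular pools, a ratio of 10900 with a counting interval of 3728 to 52840 (adjusted p = 0.122).

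Adhesion and guidance genes gave 2 calls, both jugular. Cdh1, encoding E-cadherin, was at 129 and 201 CPM in jugular pools and had 10 counts in each nodose pool (log2 fold change 11.34, SE 1.05, edgeR adjusted p = 0.0494). Plxnc1, the receptor of semaphorin 7A, was at 171 and 114 CPM in jugular pools and had 7 and 6 counts in nodose pools (log2 fold change 11.74, SE 1.19, adjusted p = 0.0579). Another gene model on the same strand overlaps its exons, so its reads may be split or lost. Of 11 cadherin, protocadherin, contactin and neurexin genes past the CPM minimum, 6 were higher in both jugular and 3 in both nodose pools (54.5% and 27.3%, all genes 24.3% and 24.7%). Cntn1, a contactin of axons, was at 94.3 and 148 CPM in jugular pools but 0.0912 and 0.0637 CPM in nodose pools. Among genes not called that met the fold and CPM minimum, it had the smallest edgeR adjusted p (log2 fold change 10.64, adjusted p = 0.114). Unc5c, a netrin receptor, was at 25.3 and 84.5 CPM in nodose pools and had 14 counts over both jugular pools.

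The called genes described next belonged to none of the lists. On the jugular side, Ppm1j, a PP2C-type phosphatase, was at 423 and 341 CPM and had 21 and 15 counts in nodose pools (log2 fold change 11.71, SE 0.665, edgeR adjusted p = 0.0187). Cpne6, a calcium-dependent phospholipid-binding copine, was at 557 and 388 CPM against 0.287 and 0.134 CPM, and Ppp1r1a, protein phosphatase inhibitor 1, at 247 and 203 CPM against 0.111 and 0.0764 CPM. Ly86, the secreted partner of a Toll-like receptor homologue, was at 162 and 144 CPM against 11 and 6 counts, and Serpinb1a, a protease inhibitor, at 166 and 133 CPM against 7 and 8 counts. All 5 were under 1 CPM in both nodose pools. Hopx, a homeodomain protein without DNA binding of its own, was at 301 and 232 CPM against 1.8 and 4.15 CPM (log2 fold change 6.53, SE 0.766, adjusted p = 0.0946), and an antisense gene overlaps its exons. Fez1, an adaptor for kinesin transport, was at 768 and 734 CPM against 95 and 122 CPM (log2 fold change 2.83, SE 0.281, adjusted p = 0.0579). S100a6, a calcium-binding protein, was at 2452 and 1892 CPM against 708 and 603 CPM (log2 fold change 1.77, SE 0.201, adjusted p = 0.0922). It had the smallest fold change among the 15 jugular genes.

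On the nodose side, Dcdc2a, a doublecortin-domain protein of microtubules, was at 702 and 692 CPM against 54 and 46 counts in jugular pools (log2 fold change -11.33, SE 0.436) and had the smallest adjusted p of the whole test, 0.0115. Efcab6 was at 208 and 259 CPM against 7 and 5 counts, Itm2a, a small membrane protein, at 156 and 167 CPM against 6 and 2 counts, and Ccdc80, a secreted matrix protein, at 126 and 117 CPM against 4 and 5 counts. Myl1, a myosin light chain known from fast skeletal muscle, was at 150 and 148 CPM against 3 and 2 counts, a ratio of 9975 with a counting interval of 4274 to 30720 (edgeR adjusted p = 0.0494). The 16 skeletal muscle markers were low, and their sum was higher in both nodose pools, at 13.9 and 38.4 CPM against 4.5 and 8.61 CPM. The 3 members tested had a median log2 fold change of -3.29, and single members differed in direction. Acta1, skeletal muscle actin, was at 9.65 and 35.6 CPM in nodose against 4.49 and 0.0102 CPM in jugular pools, below Myl1 in every nodose pool. Mylpf, another fast myosin light chain, had no count in the nodose pools and 1651 counts over both jugular pools, all in the second at 8.39 CPM. The part of muscle RNA in the Myl1 difference was not tested. Crip1, a LIM protein, was at 321 and 436 CPM against 21.9 and 14.5 CPM (log2 fold change -4.34, SE 0.508, adjusted p = 0.0946).

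Tmem176b, a membrane protein whose exons overlap those of its antisense neighbour Tmem176a, was at 1226 and 1179 CPM in nodose against 153 and 145 CPM in both jugular pools (log2 fold change -2.98, SE 0.211, edgeR adjusted p = 0.0298). Lgals1, encoding galectin 1, was at 1396 and 1496 CPM against 305 and 270 CPM (log2 fold change -2.29, SE 0.192, adjusted p = 0.0408), and Fstl1, a secreted glycoprotein, at 2587 and 2505 CPM against 967 and 965 CPM (log2 fold change -1.36, SE 0.13, adjusted p = 0.0507). These 3 abundant genes replicated closely within each ganglion. Rn45s, the precursor of ribosomal RNA, was also called (log2 fold change -1.80, SE 0.169, adjusted p = 0.0507). Its level follows how well ribosomal RNA was excluded from a library as well as the cell's content, and these cannot be told apart. Without Rn45s in the counts, all 15 jugular genes and the other 19 nodose genes were still called.

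**Figure D3:**
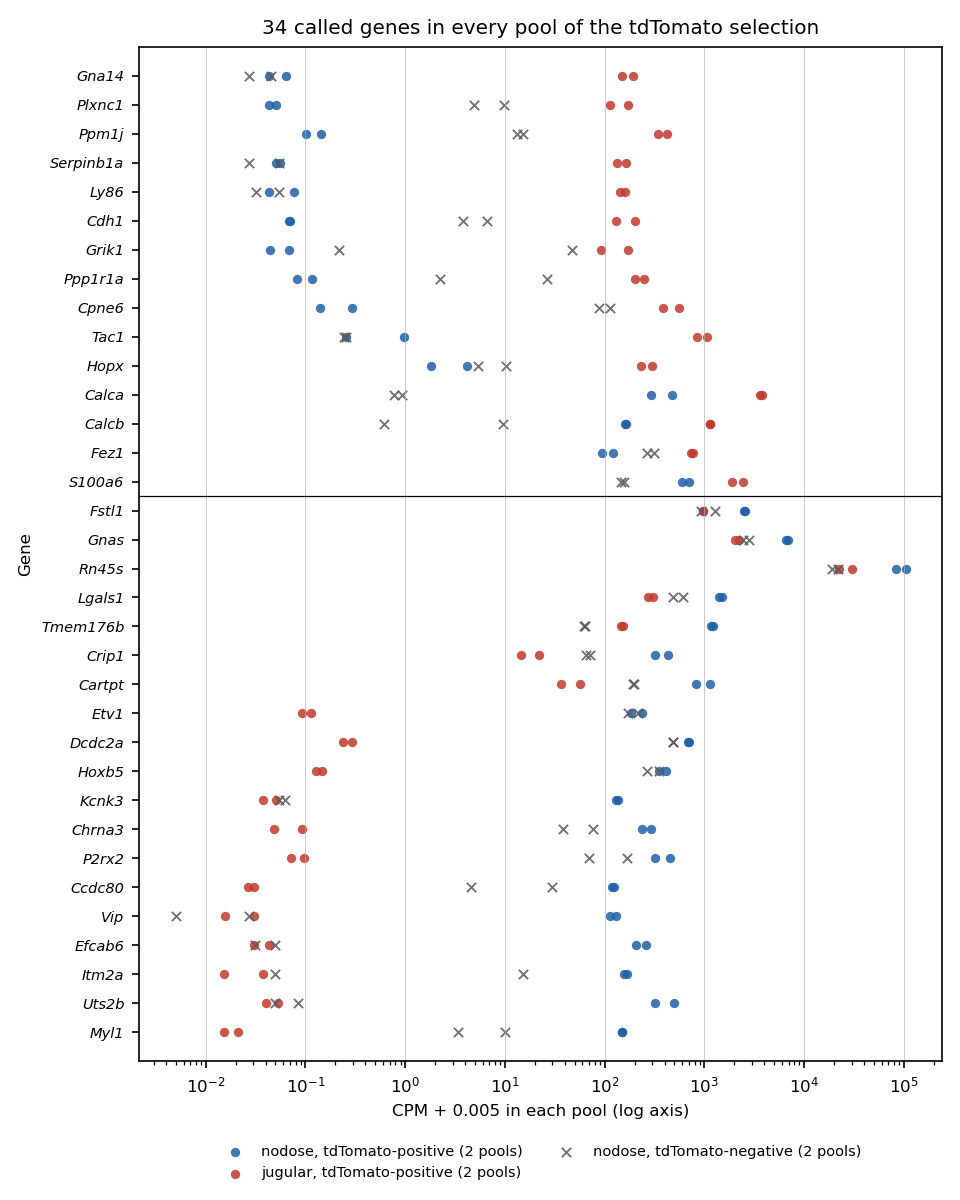
CPM plus 0.005 (log axis) of 34 of the 35 called genes in each pool: nodose tdTomato-positive (blue), jugular tdTomato-positive (red) and nodose tdTomato-negative (grey crosses), 2 pools each. Genes above the line were called higher in jugular and genes below it higher in nodose. In all 15 jugular genes the tdTomato-negative nodose pools lie below both jugular pools, and in 13 of the 19 nodose genes shown they lie above both jugular pools. Among these 13, Kcnk3 does so only near the floor.

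Genes of mitochondrial oxidative phosphorylation lay together on the nodose side with small differences. Of the 85 nuclear genes on the list 75 passed the CPM minimum, and 48 of these (64%) were higher in both nodose pools against 1 (1.33%) higher in both jugular pools, where 24.7% and 24.3% of all genes were. None was called. The median log2 fold change was -0.452, against -0.026 over all genes past the minimum, and it stayed between -0.514 and -0.303 in every alternative fit. Cox4i1, a core subunit of cytochrome c oxidase, was at 2249 and 2548 CPM in nodose against 1684 and 1563 CPM in both jugular pools (log2 fold change -0.52, SE 0.134, edgeR adjusted p = 0.321). Atp5g3, a c subunit of ATP synthase, was at 1449 and 1245 CPM against 484 and 408 CPM (log2 fold change -1.56, SE 0.204, adjusted p = 0.136), and Sdhd, of complex II, at 394 and 311 CPM against 62.5 and 89.9 CPM. Cox7a1, the oxidase subunit of muscle and heart, stood apart, at 124 and 117 CPM against 0.0215 and 0.28 CPM.

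Ribosomal protein genes did not lie to one side in this way. Of 77 past the CPM minimum, 21 were higher in both nodose and 9 in both jugular pools, 47 overlapped, and the median log2 fold change was -0.083, with both signs among the alternative fits (-0.202 to 0.037). Neurofilaments and other intermediate filaments lay toward the jugular side, with 5 of 7 genes higher in both jugular pools and 1 in both nodose pools (71.4% and 14.3%, all genes 24.3% and 24.7%) and a median of 0.952. Nefl, the light neurofilament, was at 2417 and 2907 CPM in jugular against 963 and 1371 CPM in nodose pools (log2 fold change 1.23, SE 0.216, edgeR adjusted p = 0.238). Nefh, the heavy neurofilament of large fibers, was at 298 and 381 CPM against 99.8 and 219 CPM, and Ina, α-internexin, at 56.4 and 55.7 CPM against 8 counts over both nodose pools. No gene of the 3 groups was called.

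Of 28 synaptic vesicle release genes past the CPM minimum, 11 were higher in both nodose and 8 in both jugular pools (39.3% and 28.6%, all genes 24.7% and 24.3%), with no call and a median of -0.381. Sncg, γ-synuclein, one of the most abundant transcripts, was at 7590 and 7677 CPM in nodose against 11167 and 10254 CPM in jugular pools, a difference well replicated but under 2-fold (log2 fold change 0.53, SE 0.0721, edgeR adjusted p = 0.149). Of 23 genes of injury, regeneration and immediate early response, 8 were higher in both nodose and 4 in both jugular pools (34.8% and 17.4%, all genes 24.7% and 24.3%). Gap43, of growing axons, was at 1397 and 1517 CPM in nodose against 790 and 785 CPM in both jugular pools (log2 fold change -0.85, SE 0.159, adjusted p = 0.285).

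Some abundant transcripts had nearly the same level in both ganglia. Among the 100 genes of highest mean CPM, the 5 with the smallest fold change were Apoe, Stmn3, Tmsb10, Ywhah and Mapk3, all within 0.01 of a log2 fold change of 0 with SE of 0.17 to 0.261. Ywhah, a 14-3-3 protein, was at 2533 and 3159 CPM in nodose against 2480 and 3109 CPM in jugular pools. They were chosen for their small fold change, so the values are a description.

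**Figure D4:**
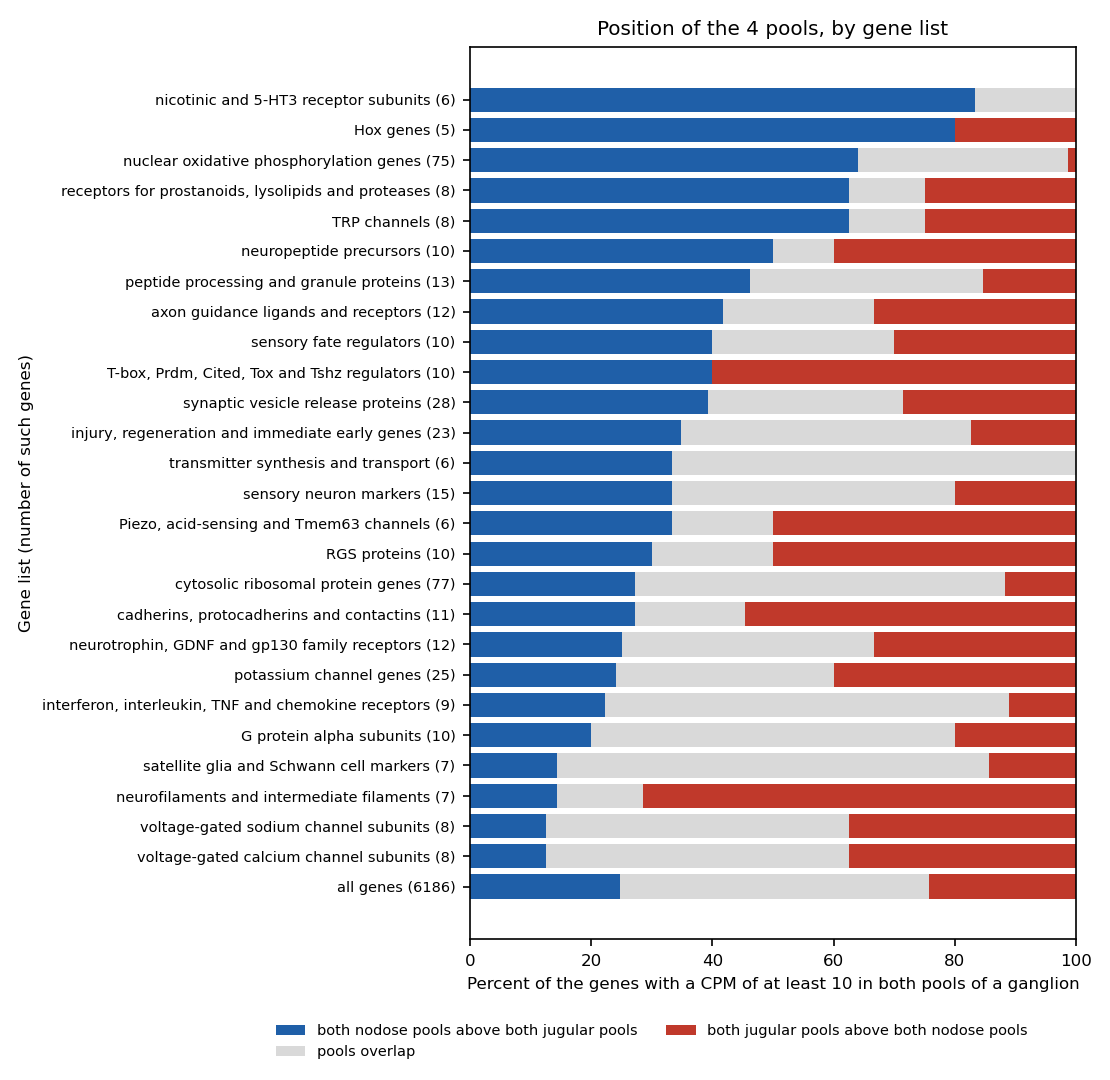
Share of the genes of each list with at least 10 CPM in both pools of a ganglion whose 2 nodose pools lay above both jugular pools (blue), whose pools overlapped (grey) and whose 2 jugular pools lay above both nodose pools (red), for lists with at least 5 such genes, with all 6186 genes at the bottom (24.7%, 51% and 24.3%). Nicotinic and 5-HT3 receptor genes (83.3%), Hox genes (80%) and oxidative phosphorylation genes (64%) have the widest blue bars, and neurofilaments (71.4%) the widest red bar.

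The Trpv1-tdTomato-negative nodose pools, which share the ganglion but lack the reporter, sort the called genes into several patterns, given here as values without a test. All 15 jugular genes were lower in both of these pools than in both jugular pools. Calca, at 0.766 and 0.935 CPM, and Tac1, at 0.253 and 0.238 CPM, were under 1 CPM there. Of the 20 nodose genes, 14 were above both jugular pools in the negative nodose pools too. At 10 CPM or more in both negative pools were 13 of the 20. Hoxb5, at 268 and 353 CPM, Etv1, at 171 and 215 CPM, and Dcdc2a, at 484 and 482 CPM, were thus found in nodose neurons with and without the reporter. Uts2b, Vip, Kcnk3 and Efcab6 were under 1 CPM in the negative nodose pools, although Kcnk3 was among the 14. The highest jugular pool of Kcnk3 was at 0.0457 CPM, so its margin lay near the floor. Uts2b was at 0.0797 and 0.045 CPM, Kcnk3 at 0.0576 and 0.0495 CPM and Vip at 0.0222 and 0 CPM. Uts2b, Kcnk3 and Vip were thus near the floor in jugular and in reporter-negative nodose neurons alike, and Efcab6 was under 1 CPM in both.

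In the capsaicin selection, where other cells of other mice were chosen by function, the genes called above went mostly the same way. Of the 15 jugular genes 14 could be fitted, and all 14 had both jugular pools above both nodose pools. Hopx had no count in any of the 4 capsaicin pools. Of the 20 nodose genes, all 20 had a negative log2 fold change and 17 had both nodose pools above both jugular pools. Over the 4034 genes past the CPM minimum in both selections, 22.9% lay higher in both jugular and 23.9% in both nodose capsaicin pools. The exceptions were Cartpt, Rn45s and Fstl1, whose capsaicin pools overlapped. Cartpt was at 42.9 and 187 CPM in nodose against 59 and 5.53 CPM in jugular capsaicin pools, and Fstl1 at 5402 and 16188 CPM against 6054 and 2731 CPM. Tac1 was at 998 and 234 CPM in jugular against 0.595 and 0.408 CPM in nodose capsaicin pools (log2 fold change 10.34, edgeR adjusted p = 0.162), and Gna14 at 317 and 275 CPM against 0.149 and 0.163 CPM (adjusted p = 0.155). For P2rx2 the α,β-methylene-ATP response was part of the selection, so its values there are no independent reading. No gene was called in the capsaicin pools by edgeR on their own, of 8181 tested, with 1150 (14.1%) at an unadjusted p under 0.05, and DESeq2 gave 707 genes past the CPM minimum an adjusted p of at most 0.1. The genes of oxidative phosphorylation again lay toward nodose, with 49 of 74 higher in both nodose and 2 in both jugular capsaicin pools and a median log2 fold change of -0.63. Of 6 intermediate filament genes, 2 were higher in both jugular capsaicin pools and 1 in both nodose pools.

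**Figure D5:**
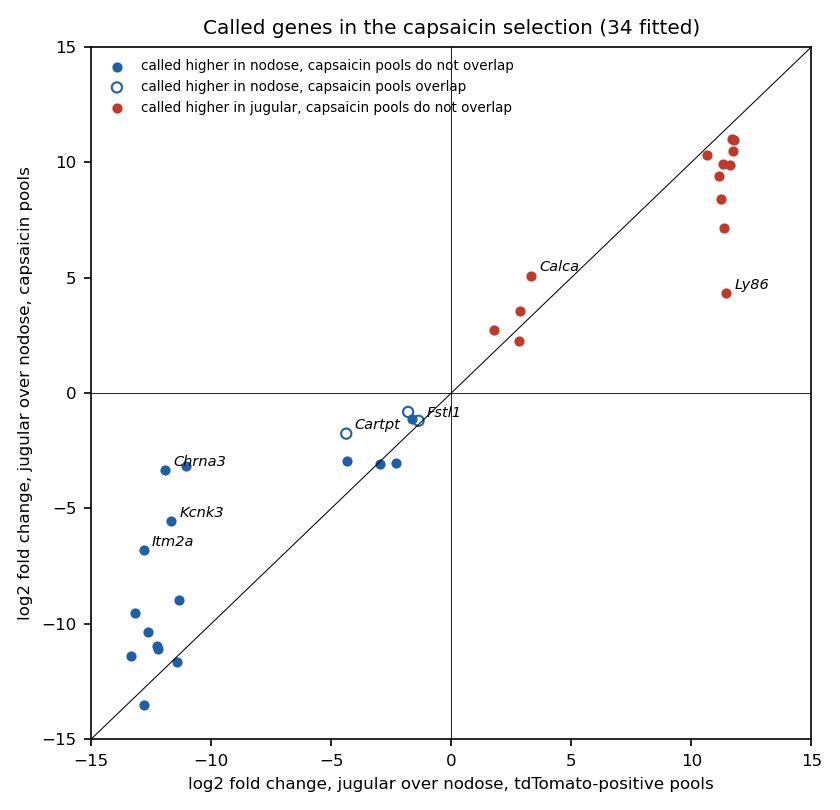
Log2 fold change, jugular over nodose, in the tdTomato-positive pools (horizontal) and in the capsaicin pools (vertical) for 34 of the 35 called genes, Hopx having no count in the capsaicin pools. All 34 keep their sign, and the 3 open circles mark genes whose capsaicin pools overlap.

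Whether the ganglion difference itself differed between the selections was tested by the interaction of ganglion and selection over the 8 pools. No gene passed an adjusted p of 0.1 by edgeR, of 11959 tested, with 1233 (10.3%) at an unadjusted p under 0.05, whereas DESeq2 passed 2520 genes. Each selection had its own core facility, mouse line and depth, and these cannot be told apart. Among the 5 genes of smallest interaction p, Th, the dopamine-synthesis enzyme tyrosine hydroxylase, was at 148 and 75.4 CPM in nodose against 54.4 and 131 CPM in jugular tdTomato-positive pools. In the capsaicin pools it was at 596 and 479 CPM in nodose against 0.363 and 0.157 CPM in jugular (interaction adjusted p = 0.104). Nrg1, a neuregulin, was at 32.2 and 55.2 CPM in jugular and 4 and 1 counts in nodose tdTomato-positive pools, but at 141 and 876 CPM in nodose against 302 and 141 CPM in jugular capsaicin pools (interaction adjusted p = 0.159).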

How the data were processed

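Hand-picked neurons went directly into SMARTer Ultra Low Input cDNA synthesis, without RNA extraction, and were sequenced by the authors. The deposited values are raw read counts per gene symbol, 1 file per pool. Per the labels and the methods of the study, reads were aligned to mm10 with TopHat2 2.0.9 and Bowtie2 2.1.0.0 and counted with HTSeq. The gene annotation, the strand setting and the HTSeq version are not given in the sources used here. Of 24421 gene rows, 27 carry a symbol that a spreadsheet had turned into a date, and these stayed unnamed.

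Groups were taken from the labels. Genes were filtered with filterByExpr, scaled by TMM and tested with edgeR 4.0.16 (R 4.3.3) by the quasi-likelihood F test on the 4 tdTomato-positive pools. P-values were adjusted by Benjamini-Hochberg over all genes tested, and the SE is the fold change divided by the square root of F. CPM come from DESeq2 1.42.0 size factors. Alternatives included DESeq2 and limma 3.58.1 voom. The legacy quasi-dispersion, first meant as the alternative to the newer estimate, is the default of this edgeR version and is the fit reported. The newer estimate gave negative F statistics for 496 of 10990 genes, against 0 with the default, and was run as an added alternative. This choice was made after the calls of both had been seen.

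Pools of the same replicate number did not deviate together (r = 0.00393 over 6186 genes), and no pairing was used. This correlation cannot show whether same-numbered pools share a mouse. The tests were tried on simulated data with known changes. Where the simulated spread was small, all tools recovered the changed genes. In a single set with a spread as large as in these pools, every tool missed most of the changed genes. The share of false calls there was above the nominal one, most of all for DESeq2. How far this holds for the genes called here was not tested. The text names all called genes, Trpv1, up to 3 further non-overlapping members with the largest fold change and the 2 most abundant members of each of 39 lists, 5 genes of smallest interaction p and 5 abundant genes of smallest fold change. Of these 178 genes the results describe those that carry a comparison. Some genes are not reported here. Members and lists were chosen with earlier results of these data known. Intervals and floors cover counting error only, since amplified reads are not independent molecules.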

Additional observations from a re-analysis of the deposited data

Results flagged for a closer look

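Among genes on the lists, 5 had pools that did not overlap in either selection but lay in opposite directions. Cacnb4, a calcium channel β subunit, had a log2 fold change of 1.969 in the tdTomato-positive and -1.541 in the capsaicin pools. Flrt3, an adhesion protein, had 1.602 and -1.967. Nrp1, a semaphorin co-receptor, had -1.09 and 10.39, Cntn2, a contactin, -2.052 and 6.37, and Stx2, a syntaxin, -0.922 and 10.211. The interaction of ganglion and selection passed the threshold in none of the 5. Its edgeR adjusted p was 0.478 for Cacnb4, 0.478 for Flrt3, 0.408 for Nrp1, 0.478 for Cntn2 and 0.227 for Stx2. Selection goes together with core, mouse line and depth, and these cannot be told apart.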

How the results depend on the processing

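All 35 called genes kept their direction in every fit that included them, whereas the number of calls depended on the setting. Their pools do not overlap, so the fits without 1 pool could not have reversed them. Against 15 jugular and 20 nodose calls, 26 and 33 were called with no filter on low counts, 219 and 152 in a fit only to genes of at least 10 CPM, 306 and 204 by DESeq2, 28 and 43 in a fit to the 6 pools of the tdTomato selection, and 8 and 13 at an adjusted p of at most 0.05. The fit to 6 pools lost Calcb, Grik1, Itm2a and Vip (adjusted p = 0.387, 0.271, 0.263 and 0.153). The newer quasi-dispersion, added after seeing the data, gave 14 and 12, of which 13 were among the 35. Limma-voom gave 0 and 0, with 1421 genes at an unadjusted p under 0.05. Many of the 35 lay just over the threshold there, at a limma-voom adjusted p of 0.1001, and Hopx was highest at 0.205. Leaving out any 1 pool gave 0 to 0 calls in both directions, with 636 to 1071 genes at an unadjusted p under 0.05, and the lone pool is then assumed to vary like the others. RLE scaling gave 13 and 20, the fit without Rn45s 15 and 19, and no minimum CPM 15 and 20. Whether the replicate numbers pair the pools by mouse is not known. With the replicate block 4 jugular and 9 nodose genes were called, 12 of them among the 35. The interaction passed for 0 genes, 102 with no filter and 2520 by DESeq2, and for 0 with RLE, the replicate block or the newer estimate. Why the counts of calls differ was not tested.

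None of the genes that changed sign was called. With 1 pool left out, the log2 fold change ranged from -0.355 to 1.06 for P2rx3, -2.69 to 3.51 for Glrb, -0.511 to 0.762 for Scn10a, -0.154 to 0.532 for Lifr, -0.116 to 1.14 for Adora1, -0.194 to 3.70 for Ednrb, -0.985 to 0.343 for Th, -0.131 to 0.0501 for Prph and -0.0234 to 0.473 for Egfl7. It ranged from -0.325 to 0.277 for Apoe, -0.288 to 0.249 for Stmn3, -0.366 to 0.297 for Tmsb10, -0.143 to 0.181 for Ywhah and -0.143 to 0.139 for Mapk3. Glrb also turned positive with limma-voom (0.333) and the replicate block (0.253). With no filter the values were 0.0278 for Apoe, 0.0300 for Stmn3, 0.0300 for Tmsb10 and 0.0270 for Mapk3, and Apoe was at 0.000101 in the fit to genes of at least 10 CPM. Ywhah was at -0.0396 with RLE and -0.0263 with DESeq2. The median of all genes was -0.027 with TMM and -0.078 with RLE.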
